A study of Homo sapiens with 14 samples.

Results

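The genes described here are 33 named genes of homologous recombination, the Fanconi anaemia pathway and the DNA damage checkpoint. They form a fixed list of gene names, chosen with earlier results of these data known, out of 24638 genes present in all tables of the series. By role, 10 act in recombination itself, 7 in the resection and processing of DNA ends and joints, 9 in the Fanconi pathway and 7 in the checkpoint. All 33 passed the filter on low counts in both tested comparisons.

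A broken chromosome can be repaired by homologous recombination, in which the ends are trimmed to single strands and the sister copy serves as template. This pathway works in S and G2 phase, when a sister copy exists. The Fanconi proteins recognise crosslinks between the strands, and the kinases ATM and ATR with their effectors CHEK2 and CHEK1 halt the cell cycle until damage is dealt with. In proliferating fibroblasts many of these genes are transcribed as cells enter S phase.

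The cells were IMR90, a widely used human fibroblast line from lung, and poly(A)+ RNA was read in 7 groups. Of these, 4 came from a pair of isolates named I79 and I10, taken young, while still proliferating, and old, once passaging had brought replicative senescence. Another held I79 cells given ICM, or inflachromene, which binds HMGB1 and HMGB2. The remaining groups were wild type cells (WT) and cells with HMGB2 knocked down by siRNA (HMGB2 KD), and neither their isolate nor the dose and time of ICM is given in the labels. The labels list 2 replicates a group, but each young or old group came as 1 table, so the 2 isolates served as the replicates of old against young. All groups are the same fibroblast line in culture, with no other genetic change named.

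Libraries of WT and HMGB2 KD held between 33561766 and 41168932 counts and those of ICM held 13290131 and 10971132 reads. The young and old tables ranged from 14991385 to 20632959 estimated counts. Fibroblast markers were present in every library, with none of the 10 at a count of 0. Epithelial markers summed to between 1.396 and 3.73 CPM (counts scaled to the size of the library) and endothelial markers to between 1.85 and 11.3 CPM. The leukocyte list summed to 23.4 and 25.5 CPM in the young and 151 and 76.6 CPM in the old tables. Nearly all of it was CD68, a lysosomal protein, at 22.9 and 25.0 CPM in young and 151 and 76.2 CPM in old, while PTPRC, the defining leukocyte marker, did not exceed 0.199 CPM and CD3E was at 0 in all 4 tables. Nothing in the labels says that replicates came from separate cultures, so p-values measure only the spread between these samples. In bulk RNA, fewer cells that transcribe a gene and less RNA of it per cell cannot be told apart.

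In old cells, 16 of the 33 genes were called lower than in young cells and 0 were called higher, over both isolates. Genes were called at an adjusted p under 0.01 with a log2 fold change past 0.6, and among all 15116 genes tested by edgeR this called 3.82% lower and 5.75% higher. At an unadjusted p under 0.05, 26 of the 33 were lower and 1, ATM, was higher, beside 22.4% and 22.9% of all genes. DESeq2 called 17 lower and 0 higher, beside 5.72% and 8.61% of all genes. The median log2 fold change of the 33 genes was -1.29, and that of all genes was -0.01. Within single isolates the median of the 33 was -1.44 in I79 and -1.21 in I10. In I79, 24 of the 33 lay lower in old cells by over 0.6 on the log2 scale and 0 lay higher by as much, beside 19.6% and 21.6% of all genes. In I10, 24 lay lower and 1 higher, beside 18.8% and 18.5% of all genes. Only 1 table a group stands behind each of these single-isolate ratios, so they carry no test. Where old and young tables are said below not to overlap, the share of all genes that do the same was not counted.

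**Figure D1:**
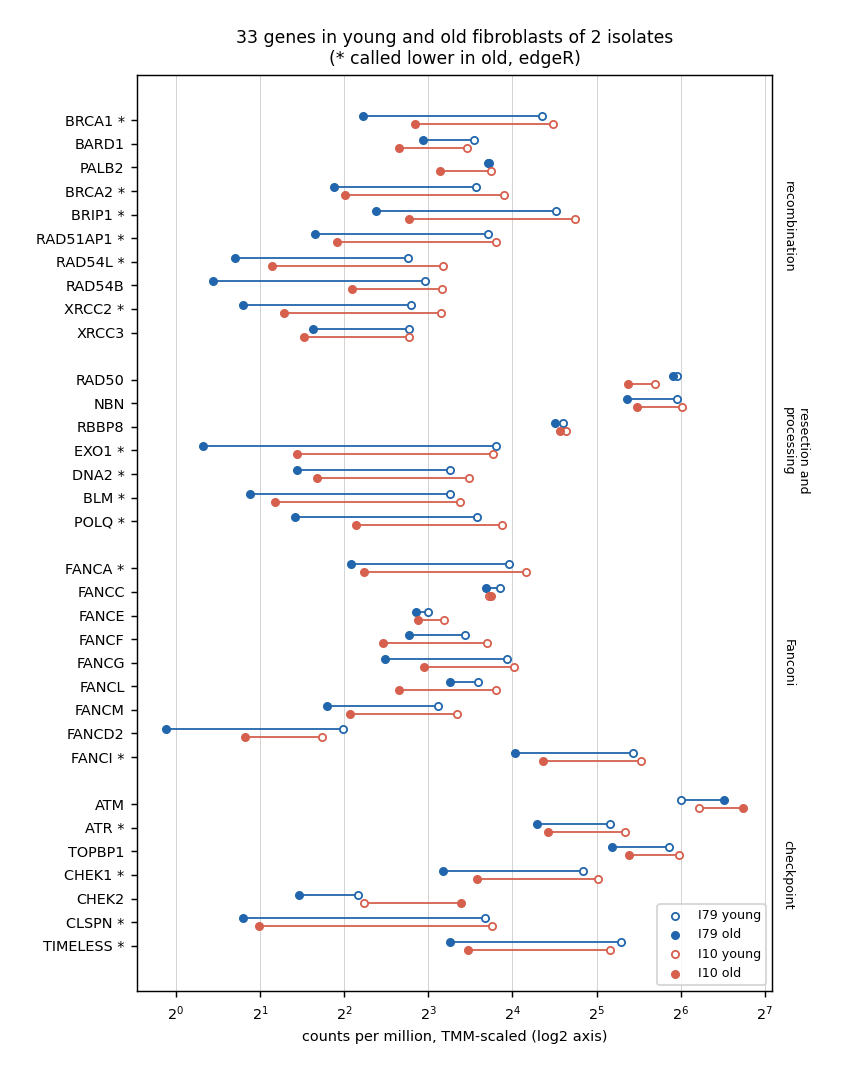
Each row is a gene and the horizontal axis is its TMM-scaled CPM on a log2 axis, with open points for young and filled points for old tables of I79 (blue) and I10 (red). The 16 genes marked with a star were called lower in old cells, while ATM lies to the right in old tables of both isolates and CHEK2 moves in opposite directions.

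Proliferation genes moved with the same groups. Of 24 tested, 21 were called lower in old cells, with a median log2 fold change of -2.18, and their part in the result was not tested. HMGB2 and HMGB1, chromatin proteins of the high mobility group, were also called lower in old cells. HMGB2 measured 122 and 141 CPM in young I79 and I10 and 38.2 and 46.3 CPM in old (log2 fold change -1.64, SE 0.10, adjusted p = 0.00356). HMGB1 measured 486 and 483 CPM in young and 171 and 191 CPM in old (-1.42, SE 0.12, adjusted p = 0.00463).

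The genes with the largest and the smallest changes are shown here by their promoters, since the letters of cell cycle motifs in these windows can be compared directly. EXO1, CLSPN and BLM had the 3 largest falls among called genes, and FANCC and RBBP8 the 2 smallest changes among genes not called. Sequences are from RefSeq (GRCh38.p14), 250 bases before to 50 bases after the first listed start of each gene, read 5′ to 3′ along the gene's strand. Capitals mark the letters of an E2F-type motif (TTCCCGC, TTTCGCGC or TTTGGCGC), a CHR (TTTGAA or TTTAAA) or a CCAAT box (CCAAT), on either strand.
EXO1 promoter, GRCh38.p14 chr1:241847954-241848253, + strand: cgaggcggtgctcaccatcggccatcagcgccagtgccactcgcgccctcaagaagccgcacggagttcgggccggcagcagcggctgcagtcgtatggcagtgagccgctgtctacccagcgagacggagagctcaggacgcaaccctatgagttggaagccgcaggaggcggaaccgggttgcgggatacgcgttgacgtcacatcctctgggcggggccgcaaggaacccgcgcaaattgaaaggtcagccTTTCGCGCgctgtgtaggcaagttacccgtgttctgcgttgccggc
CLSPN promoter, GRCh38.p14 chr1:35769929-35770228, - strand: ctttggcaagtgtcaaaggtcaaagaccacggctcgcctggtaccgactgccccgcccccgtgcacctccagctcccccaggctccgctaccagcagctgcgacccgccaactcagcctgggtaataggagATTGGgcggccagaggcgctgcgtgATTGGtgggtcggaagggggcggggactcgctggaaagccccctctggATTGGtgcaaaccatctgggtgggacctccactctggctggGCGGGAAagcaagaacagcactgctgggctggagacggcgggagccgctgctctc
BLM promoter, GRCh38.p14 chr15:90717096-90717395, + strand: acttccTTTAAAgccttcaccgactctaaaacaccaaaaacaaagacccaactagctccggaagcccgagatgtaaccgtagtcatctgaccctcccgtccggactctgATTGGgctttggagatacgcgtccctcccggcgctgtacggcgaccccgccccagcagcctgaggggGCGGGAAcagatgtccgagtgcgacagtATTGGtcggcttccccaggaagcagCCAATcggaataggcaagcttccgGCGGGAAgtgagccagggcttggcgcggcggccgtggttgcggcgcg
FANCC promoter, GRCh38.p14 chr9:95317660-95317959, - strand: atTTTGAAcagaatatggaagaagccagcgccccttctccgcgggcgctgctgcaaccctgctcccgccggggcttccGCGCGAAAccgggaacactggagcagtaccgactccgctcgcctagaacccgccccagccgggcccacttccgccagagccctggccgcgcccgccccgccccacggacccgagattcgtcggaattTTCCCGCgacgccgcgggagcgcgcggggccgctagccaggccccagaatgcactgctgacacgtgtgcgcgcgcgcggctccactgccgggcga
RBBP8 promoter, GRCh38.p14 chr18:22933078-22933377, + strand: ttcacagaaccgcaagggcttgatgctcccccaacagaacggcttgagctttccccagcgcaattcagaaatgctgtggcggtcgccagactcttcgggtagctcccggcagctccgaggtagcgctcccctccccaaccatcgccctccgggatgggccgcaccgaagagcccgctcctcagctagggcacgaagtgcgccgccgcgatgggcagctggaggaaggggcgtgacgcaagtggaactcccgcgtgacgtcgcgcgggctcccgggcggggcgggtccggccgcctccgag

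EXO1 held 1 E2F-type match, first base 5 after the start, and CLSPN held 1 at position -5 together with 3 CCAAT matches. BLM held 2 E2F-type, 3 CCAAT and 1 CHR match. FANCC, whose level changed little, held 2 E2F-type matches and 1 CHR match, and RBBP8 held none of these letters. None of the matches in these 5 windows overlapped one another. Of the 33 genes, 29 had a promoter in the table; DNA2, FANCI, NBN and RAD54B had none. E2F-type letters stood in 16 of the 29 (55.2%) and in 7.58% of all 27305 promoters. By outcome, they stood in 8 of 14 promoters of genes called lower in old cells (57.1%) and in 8 of 15 of genes not called (53.3%). CCAAT letters stood in 14 of the 29 (48.3%), beside 35.7% of all promoters, and CHR letters in 5 of the 29 (17.2%), beside 24.3%. Some genes list more than 1 start, EXO1, FANCC and RBBP8 among those printed, and only the window of the first was read. These are matches of letters, not measured binding.

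Among the recombination genes, 6 of 10 were called lower in old cells, and the median log2 fold change of the 10 was -1.83. BRCA1, which steers breaks into recombination, measured 20.5 and 22.3 CPM in young I79 and I10 and 4.67 and 7.18 CPM in old. BRCA2, a tumour suppressor needed for strand exchange, measured 11.8 and 14.9 CPM in young and 3.69 and 4.03 CPM in old. For both genes each old table lay below each young table, and both were called (BRCA1 -1.87, SE 0.19, adjusted p = 0.00593, and BRCA2 -1.78, SE 0.19, adjusted p = 0.0061). Their other partners divided. BRIP1, a helicase that binds BRCA1, measured 22.9 and 26.7 CPM in young and 5.21 and 6.80 CPM in old and was called (-2.05, SE 0.16, adjusted p = 0.00415). BARD1, the obligate partner of BRCA1 in its ubiquitin ligase, measured 11.6 and 11.01 CPM in young and 7.65 and 6.30 CPM in old and did not pass (-0.70, SE 0.18, adjusted p = 0.0407). PALB2, the bridge between BRCA1 and BRCA2, measured 13.2 and 13.4 CPM in young and 13.1 and 8.84 CPM in old. For PALB2 the I79 tables barely differed and only the old I10 table was lower, and it did not pass (-0.30, SE 0.21, adjusted p = 0.313).

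The factors of strand invasion were mostly called. RAD51AP1, which stimulates strand invasion, measured 13.1 and 14.0 CPM in young and 3.15 and 3.76 CPM in old (-1.97, SE 0.19, adjusted p = 0.0054). RAD54L, a motor protein that moves along DNA, measured 6.78 and 9.02 CPM in young and 1.63 and 2.21 CPM in old (-2.04, SE 0.24, adjusted p = 0.00734). XRCC2, a recombination factor, measured 6.91 and 8.92 CPM in young and 1.74 and 2.43 CPM in old (-1.93, SE 0.24, adjusted p = 0.00797). These 3 were called lower, with old tables at about the same level in both isolates. RAD54B, a relative of RAD54L, measured 7.81 and 8.97 CPM in young and 1.36 and 4.26 CPM in old, with the old I79 table far below the old I10 table, and did not pass (-1.72, SE 0.40, adjusted p = 0.0336). XRCC3, which also acts in recombination, measured 6.85 and 6.83 CPM in young and 3.09 and 2.87 CPM in old and did not pass either (-1.20, SE 0.23, adjusted p = 0.0216).

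Of the 7 resection and processing genes, 4 were called lower, and the median log2 fold change of the 7 was -1.80. EXO1 (GRCh37 chr1:242011269-242058450, + strand), the exonuclease of long-range resection, measured 14.0 and 13.6 CPM in young and 1.25 and 2.71 CPM in old. This was the largest fall among the 33 genes (-2.85, SE 0.33, adjusted p = 0.00725), and it was deeper in I79, where the old to young ratio was 0.0894, than in I10, where it was 0.199. DNA2, the nuclease of the other long-range resection route, measured 9.54 and 11.2 CPM in young and 2.71 and 3.21 CPM in old (-1.80, SE 0.20, adjusted p = 0.0069). BLM (GRCh37 chr15:91260577-91359396, + strand), the helicase mutated in Bloom syndrome, measured 9.54 and 10.4 CPM in young and 1.84 and 2.27 CPM in old (-2.28, SE 0.22, adjusted p = 0.00559). POLQ, the polymerase of microhomology-mediated joining, measured 11.97 and 14.7 CPM in young and 2.66 and 4.42 CPM in old (-1.94, SE 0.21, adjusted p = 0.00638). All 4 were called lower, and every old table of them lay below every young table. With counts rebuilt from TPM, EXO1 (adjusted p = 0.0128), DNA2 (0.0191) and BLM (0.0143) kept their direction and lost the call.

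The genes that start resection were not called. RAD50, a subunit of the MRN complex that binds broken ends, measured 62.0 and 52.0 CPM in young and 60.3 and 41.4 CPM in old (-0.18, SE 0.12, adjusted p = 0.294). NBN, its partner in MRN, measured 61.9 and 64.6 CPM in young and 41.0 and 44.5 CPM in old (-0.56, SE 0.10, adjusted p = 0.0181), under the fold threshold in size although both old tables were lower. RBBP8, or CtIP, which starts resection with MRN, measured 24.3 and 24.9 CPM in young and 22.8 and 23.8 CPM in old (-0.08, SE 0.13, adjusted p = 0.65). For RBBP8 the counting intervals of the old to young ratio were 0.813 to 1.08 in I79 and 0.836 to 1.09 in I10. These are 95% Clopper-Pearson intervals that cover counting error only, and a ratio under 0.81 lies outside both.

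**Figure D2:**
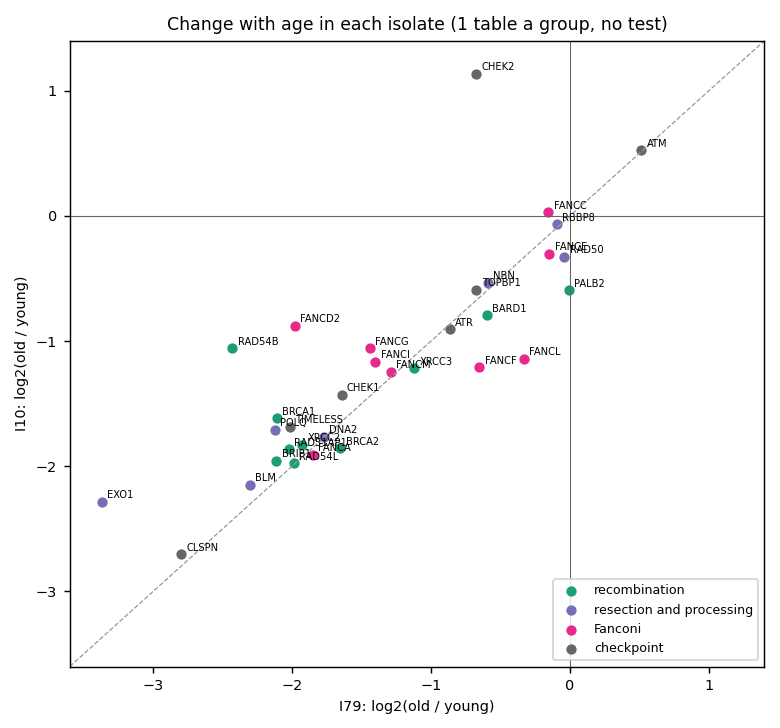
Each point is a gene, with its log2 ratio of old to young in I79 on the horizontal axis and in I10 on the vertical axis, coloured by role, and the dashed line marks equal change. EXO1, CLSPN and BLM lie at the lower left, RBBP8, FANCC and FANCE near the origin, ATM above 0 on both axes, and CHEK2 far from the line at -0.67 and 1.14.

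In the Fanconi pathway 2 of 9 genes were called lower in old cells, with a median of -1.26. FANCA, a subunit of the core complex, measured 15.6 and 17.9 CPM in young and 4.23 and 4.70 CPM in old (-1.90, SE 0.17, adjusted p = 0.00485). FANCI, a subunit of the pair that the core complex ubiquitylates, measured 43.4 and 46.3 CPM in young and 16.4 and 20.6 CPM in old (-1.29, SE 0.13, adjusted p = 0.00574). The rest of the core complex had a range of values. FANCG measured 15.4 and 16.2 CPM in young and 5.59 and 7.74 CPM in old, just outside the call (-1.26, SE 0.19, adjusted p = 0.0115), and it passed under another scaling (RLE, adjusted p = 0.00984). FANCM, the DNA translocase that brings the core complex to chromatin, measured 8.64 and 10.1 CPM in young and 3.47 and 4.20 CPM in old (-1.29, SE 0.20, adjusted p = 0.0131). FANCF measured 10.8 and 12.9 CPM in young and 6.84 and 5.53 CPM in old (-0.94, SE 0.22, adjusted p = 0.0326). In these 3 genes both old tables were lower than both young tables, without passing the threshold. How many of all genes separate in this way was not counted.

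FANCL, the ubiquitin ligase of the core complex, measured 12.03 and 14.0 CPM in young and 9.55 and 6.30 CPM in old (-0.74, SE 0.25, adjusted p = 0.0825). FANCC measured 14.4 and 13.1 CPM in young and 12.9 and 13.4 CPM in old (-0.06, SE 0.16, adjusted p = 0.778). FANCE, the subunit that binds FANCD2, measured 8.001 and 9.08 CPM in young and 7.22 and 7.35 CPM in old (-0.23, SE 0.18, adjusted p = 0.383). FANCC overlapped between the groups and FANCE and FANCL did not. So the core complex genes ranged from a log2 fold change of -1.90 for FANCA to -0.06 for FANCC.

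FANCD2, the partner of FANCI, could not be given 1 direction. Its estimated counts were 62 and 64 in young I79 and I10 and 17 and 32 in old, or 3.97 and 3.34 CPM in young and 0.922 and 1.77 CPM in old (-1.47, SE 0.42, adjusted p = 0.0563). Its TPM, a level per transcript length summed over transcripts, went the other way, from 2.45 and 1.34 in young to 5.83 and 4.19 in old. In old I79, 1 transcript of 117 bases, FANCD2-211, held 0.954 estimated counts and 89.4% of the gene's TPM. In old I10, 51.5% of the TPM lay on 1 transcript of 449 bases with 7.87 estimated counts. With counts rebuilt from TPM the fitted log2 change was 1.61 (adjusted p = 0.0167). At these counts a change of FANCD2 between young and old was not settled.

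Of the checkpoint genes, 4 of 7 were called lower in old cells. CLSPN (GRCh37 chr1:36185819-36235579, - strand), or claspin, the adaptor through which ATR activates CHEK1, measured 12.7 and 13.6 CPM in young and 1.74 and 1.99 CPM in old (-2.82, SE 0.21, adjusted p = 0.0041). CHEK1, the effector kinase of ATR, measured 28.5 and 32.4 CPM in young and 9.06 and 11.99 CPM in old (-1.54, SE 0.14, adjusted p = 0.00521). TIMELESS, which holds the replication fork together, measured 39.2 and 35.7 CPM in young and 9.60 and 11.1 CPM in old (-1.86, SE 0.15, adjusted p = 0.00446). ATR itself, the kinase that senses stalled forks, was also called but had the smallest of the 16 falls, from 35.7 and 40.4 CPM to 19.6 and 21.5 CPM (-0.89, SE 0.12, adjusted p = 0.00938). TOPBP1, the activator of ATR, measured 58.1 and 63.0 CPM in young and 36.4 and 41.7 CPM in old and did not pass (-0.63, SE 0.10, adjusted p = 0.0146).

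The other kinase branch, ATM and CHEK2, was not called. ATM (GRCh37 chr11:108093771-108239829, + strand), the kinase that responds to double-strand breaks, measured 64.0 and 74.6 CPM in young and 91.5 and 107 CPM in old. Both old tables lay above both young tables, at ratios of 1.43 (counting interval 1.32 to 1.55) in I79 and 1.44 (1.34 to 1.54) in I10. The fit gave 0.52 on the log2 scale (SE 0.10, adjusted p = 0.0188), outside the call by both size and p. Its leading transcript, ATM-203, held 58.4% and 59.2% of the gene's counts in young and old I79, and 50.5% and 60.2% in young and old I10. The gene overlaps C11orf65 in the annotation, and no source says whether reads were counted by strand.

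CHEK2 (GRCh37 chr22:29083731-29138410, - strand), the effector kinase of ATM, measured 4.48 and 4.69 CPM in young I79 and I10 and 2.77 and 10.4 CPM in old. The old to young ratio was 0.617 (counting interval 0.422 to 0.899) in I79 and 2.22 (1.72 to 2.89) in I10, so that the isolates went in opposite directions and the fit over both gave no call (0.30, SE 0.48, adjusted p = 0.658). The estimated counts behind these levels were 70 and 51 in I79 and 90 and 189 in I10. In old I10, 92.2 of them lay on 1 transcript, CHEK2-206, which was listed at 0 in the other 3 tables. CHEK2 has copies elsewhere in the genome, and the 7 copies listed by name in these tables held at most 1 count in all in any table. How reads that match several copies were divided is not stated.

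**Figure D3:**
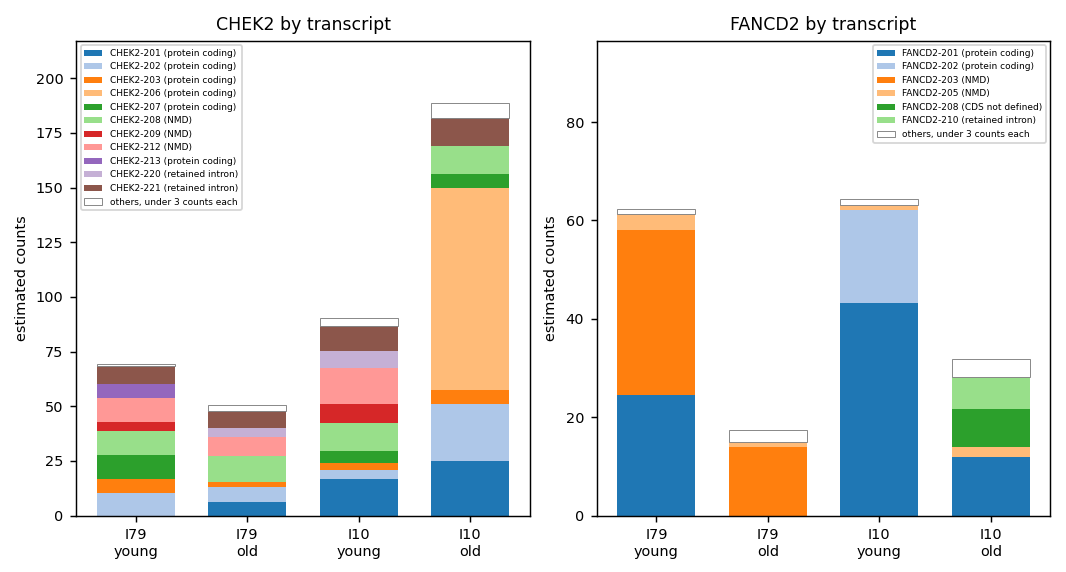
Stacked bars give the estimated counts of CHEK2 and FANCD2 in the 4 young and old tables, split by annotated transcript. CHEK2-206 appears only in old I10, at 92.2 counts, and the leading FANCD2 transcript differs between I79 and I10.

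The same transcript led in all 4 tables for 27 of the 33 genes. Besides CHEK2 and FANCD2, the leading transcript differed between tables for EXO1, BLM, XRCC3 and FANCM. For EXO1 it was EXO1-201 in both young and EXO1-202 in both old tables. Among 16 genes with at least 100 estimated counts in each table, 16 kept the same leading transcript in all 4 tables. The median share of counts on protein-coding transcripts was 93.9% and 93.8% in young I79 and I10 and 93.4% and 94.8% in old. For some genes a transcript not annotated as coding led. RAD50 had 61.9% of its counts in young I79 and 63.4% in old I79 on RAD50-209, which is annotated as a target of nonsense-mediated decay. XRCC2 had protein-coding shares of 24.6% and 19.6% in young and 37.6% and 10.04% in old I79 and I10, and transcripts marked for decay also led FANCD2 in I79 (54.0% in young and 80.0% in old) and BLM in I10 (61.8% and 66.1%). TPM, which is per length, allows levels to be ordered between genes, here summed over coding and other transcripts alike. In young cells NBN was highest by the mean of both isolates (31.4 and 26.2 TPM), followed by TOPBP1 (27.9 and 24.7 TPM), CHEK1 (26.0 and 26.3 TPM) and ATM (21.8 and 27.9 TPM), whose values overlap between neighbours. FANCD2 (2.45 and 1.34 TPM), BRCA2 (2.57 and 2.54 TPM) and XRCC2 (2.83 and 3.65 TPM) were lowest. In old cells the summed level of ATM, 32.9 and 36.6 TPM, was the highest of the 33. Its protein-coding transcripts alone had 7.15 and 7.64 TPM in young and 8.96 and 12.1 TPM in old I79 and I10, below those of NBN at 28.6 and 23.4 TPM in young and 15.6 and 14.1 TPM in old, so the place of ATM in this order depends on transcripts not annotated as coding.

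Lower levels in old cells were seen in both isolates for most of the 33 genes. The counting interval of the old to young ratio lay below 1 in both isolates for 26 of the 33 genes and above 1 in both for ATM alone, beside 25.6% and 25.8% of all genes tested. Young I10 and young I79 differed from each other by between -0.24 and 0.42 on the log2 scale over the 33 genes, in CPM over the genes shared by all tables.

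Other repair and checkpoint genes, in lists chosen with earlier results of these data known, were tested in the same fit. Over all genes this fit called 3.82% lower and 5.75% higher, and DESeq2 called 5.72% and 8.61%. At an unadjusted p under 0.05 the shares over all genes were 22.4% and 22.9%. In the lists below other than nucleotide excision repair, the shares called lower lay above these, but they rest on small counts. No list was tested against the shares over all genes. Of 39 other recombination and Fanconi genes 3 were called lower in old cells and 0 higher (median -0.29), with 17 lower and 1 higher at an unadjusted p under 0.05 and 3 and 0 called by DESeq2. The 3 were UBE2T, the ubiquitin conjugating enzyme of FANCL (-1.58), the Holliday junction resolvase GEN1 (-1.53) and the ubiquitin ligase RFWD3 (-0.97). Of 23 other checkpoint genes 5 were called lower (median -0.31), among them CDC25C (-2.36), PKMYT1 (-2.04), H2AX (-1.89) and WDHD1 (-1.25), and DESeq2 called 7. At an unadjusted p under 0.05, 11 of the 23 were lower and 2 higher. Among 15 end joining genes only PRKDC was called (-0.91, median of the list -0.28), and among 20 base excision repair genes PARP1 (-1.32) and APEX1 (-0.97, median -0.35). DESeq2 called 3 and 4 genes lower in these lists. At an unadjusted p under 0.05, end joining had 5 lower and 2 higher, and base excision repair 8 lower and 1 higher. Of 18 nucleotide excision repair genes 0 were called lower, with 4 lower and 3 higher at an unadjusted p under 0.05 and 0 lower and 2 higher by DESeq2, and the median of the list was 0.00.

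The HMGB2 knockdown set cells given siRNA against HMGB2 beside cells labelled wild type. No control siRNA is named in the labels, so effects of the siRNA treatment itself cannot be told apart from loss of HMGB2. HMGB2 measured 27.1 and 27.3 CPM in the 2 WT libraries and 3.22 and 3.64 CPM in the 2 knockdown libraries (log2 fold change -2.99, SE 0.16, adjusted p = 8.28e-07), and HMGB1 measured 365 and 357 CPM in WT against 385 and 347 CPM in the knockdown (0.02, SE 0.14, adjusted p = 0.96). Of the 33 genes 1, CHEK2, was called lower and 0 were called higher, while 2.34% of the 15338 genes tested were called lower and 2.86% higher. At an unadjusted p under 0.05, 3 of the 33 were lower and 0 higher, beside 10.9% and 13% of all genes. DESeq2 called 1 lower and 0 higher, beside 2.63% and 3.48% of all genes. The median log2 fold change of the 33 was -0.12, beside 0.00 for all genes, and 23 of the 33 values were negative, beside 49.7% of all genes. Of 24 proliferation genes tested 0 were called (median 0.01), with 0 lower and 3 higher at an unadjusted p under 0.05 and 0 by DESeq2.

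CHEK2 measured 13.1 and 11.9 CPM in WT against 7.07 and 6.97 CPM in the knockdown, from 449 and 443 counts in WT and 259 and 278 in the knockdown. Both knockdown libraries lay well below both WT libraries, and the pairs within each group were close (12.5 CPM ± 0.88 in WT and 7.02 CPM ± 0.07 in the knockdown, SD, n = 2). CHEK2 was called, at -0.83 on the log2 scale (SE 0.17, adjusted p = 0.0065). With any 1 of the 4 libraries left out the log2 fold change stayed between -0.91 and -0.76, and the call was lost, at an adjusted p of 0.0729 and 0.0116 without the first and the second WT library and 0.0134 and 0.0325 without the first and the second knockdown library. The 5 copies of CHEK2 listed by name in these tables held 0 counts in all 4 libraries. CHEK2 overlaps HSCB in the annotation.

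**Figure D4:**
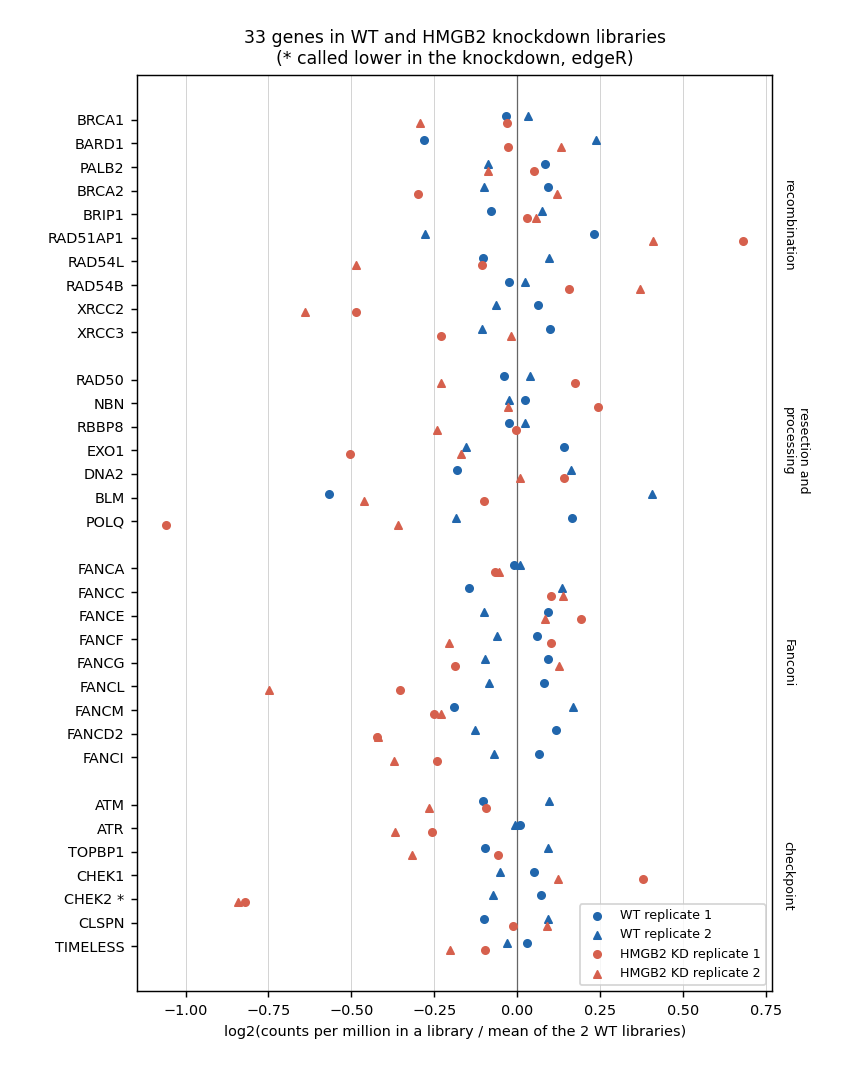
Each row is a gene and each point a library, placed at the log2 ratio of its CPM to the mean of the 2 WT libraries, with WT in blue and HMGB2 KD in red. Only CHEK2, marked with a star, was called lower, and its knockdown points lie near -0.83 while most other genes have red and blue points within 0.5 of 0.

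The remaining 32 genes did not pass. In 12 of the 33 both knockdown libraries lay below both WT libraries, beside 26.4% of all genes, and in 3 of the 33 they lay above, beside 27.4% of all genes. FANCL came nearest to the call, at 12.3 and 11.01 CPM in WT against 9.12 and 6.95 CPM in the knockdown (-0.54, SE 0.19, adjusted p = 0.0847). ATR measured 28.8 and 28.5 CPM in WT against 24.0 and 22.2 CPM in the knockdown (-0.31, SE 0.13, adjusted p = 0.17). In both, each knockdown library was lower than each WT library, with a spread inside the knockdown for FANCL that was wider than in WT. The Fanconi pair was also lower in each knockdown library, FANCD2 at 7.39 and 6.24 CPM in WT against 5.08 and 5.09 CPM in the knockdown (-0.42, SE 0.21, adjusted p = 0.247), and FANCI at 16.97 and 15.5 CPM in WT against 13.7 and 12.5 CPM in the knockdown (-0.30, SE 0.15, adjusted p = 0.244).

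A pair of recombination genes had opposite values without a call. XRCC2 measured 3.91 and 3.59 CPM in WT against 2.68 and 2.41 CPM in the knockdown (-0.56, SE 0.27, adjusted p = 0.234), and RAD51AP1 measured 3.24 and 2.28 CPM in WT against 4.43 and 3.66 CPM in the knockdown (0.55, SE 0.28, adjusted p = 0.263). POLQ had the largest value in size after CHEK2, from 3.83 and 3.00 CPM to 1.64 and 2.66 CPM (-0.66, SE 0.32, adjusted p = 0.231). RAD54B measured 2.75 and 2.84 CPM in WT against 3.11 and 3.61 CPM in the knockdown, and CHEK1 14.2 and 13.2 CPM in WT against 17.9 and 14.9 CPM in the knockdown, and with RAD51AP1 they made up the 3 genes that lay above. BRCA1, at 7.39 and 7.74 CPM in WT against 7.40 and 6.17 CPM in the knockdown, and CLSPN, at 5.81 and 6.64 CPM in WT against 6.17 and 6.62 CPM in the knockdown, overlapped between the groups. Over the 33, genes had between 60 and 3155 counts a library with a median SE of 0.20.

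The 16 genes called lower in old cells had log2 fold changes between -0.66 and 0.55 in the knockdown, with a median of -0.15, and 0 of the 16 were called there. The knockdown called 2.34% of all genes lower and 2.86% higher, so 0 of 16 lies near these shares. For the genes with the largest falls in old cells the knockdown gave -0.33 (SE 0.24) for EXO1, 0.04 (SE 0.20) for CLSPN and -0.27 (SE 0.34) for BLM. The 2 comparisons share no sample, and no test set them against each other. Among other lists the knockdown called 0 of 37 other recombination and Fanconi genes tested, 0 of 21 other checkpoint genes, 0 of 15 end joining, 0 of 7 mismatch repair, 0 of 20 base excision repair and 0 of 17 nucleotide excision repair genes, by edgeR and by DESeq2 alike. At an unadjusted p under 0.05 these lists held, in the same order, 3 lower and 3 higher, 1 lower, 1 lower, 1 lower, 3 lower and 0. Over all genes the shares at that p were 10.9% lower and 13% higher. With so few calls over all genes, 0 calls in lists of this length lie near the share.

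ICM libraries were counted in another way, as reads per region of a gene, so they were set beside young I79 as values with no test. WT against young I79 stands beside each ratio, because WT also comes from another counting. WT was not counted as ICM was, and nothing says that it shares the ICM library preparation, which was matched to ribosome profiling. The ratio of WT to young I79 therefore does not measure how much of the ICM ratios is technical. CPM here is over the shared genes, and ratios use a prior count of 2. Of the 33 genes, 28 lay lower by over 0.6 (log2) in ICM than in young I79 and 0 lay higher, beside 30.1% and 30.7% of 14714 genes compared. In WT against young I79, 21 lay lower and 2 higher, beside 23.3% and 21.3%. The median of the 33 was -2.05 for ICM and -0.95 for WT, with medians over all genes of -0.01 in both. With WT in place of young I79 as the comparator of ICM, 24 of the 33 lay lower and 0 higher, beside 28.2% and 31.1%, with a median of -1.07. Because the 3 ratios are built from 3 groups, they are not independent. Proliferation genes had medians of -4.21 in ICM and -1.94 in WT against young I79, and the 10 fibroblast markers had medians of -1.26 and -0.57, with 6 of 10 past 0.6 lower in ICM against young I79. The part of neither list in these ratios was tested.

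By role, the medians of ICM against young I79 were -2.57 for recombination, -2.55 for resection and processing, -1.61 for the checkpoint and -1.25 for the Fanconi pathway. The same medians in WT against young I79 were -1.55, -1.20, -0.78 and -0.38. RAD51AP1 had the lowest ratio, at 0.388 and 0.753 CPM in the ICM libraries, 3.52 and 2.47 CPM in WT and 15.0 CPM in young I79, or -4.57 for ICM and -2.31 for WT against young I79. POLQ measured 0.621 and 0.471 CPM in ICM, 4.15 and 3.25 CPM in WT and 13.6 CPM in young I79 (-4.45 and -1.87). Both genes rest on 5 to 8 reads in each ICM library. BRCA2 measured 1.61 and 0.533 CPM in ICM, 4.09 and 3.57 CPM in WT and 13.5 CPM in young I79 (-3.73 and -1.80), so that the ICM libraries lay below WT, and WT below young I79, in all 3 genes.

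EXO1 measured 1.55 and 1.98 CPM in ICM, 6.21 and 5.05 CPM in WT, 15.9 CPM in young I79 and 1.27 CPM in old I79. CLSPN measured 2.65 and 2.45 CPM in ICM, 6.31 and 7.20 CPM in WT, 14.5 CPM in young I79 and 1.76 CPM in old I79. In both genes ICM stood nearer to old than to young I79, with WT between. FANCG measured 1.86 and 1.41 CPM in ICM, 8.05 and 7.05 CPM in WT, 17.5 CPM in young I79 and 5.67 CPM in old I79, and there ICM stood below old I79.

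BRCA1 took another order among these groups. It measured 9.94 and 12.3 CPM in ICM, 8.02 and 8.39 CPM in WT, 23.4 CPM in young I79 and 4.75 CPM in old I79. ICM lay above WT (log2 ratio 0.43) and above old I79, and it was the 1 gene of the 33 besides ATR with an ICM to WT ratio above 0. ATR measured 32.7 and 29.5 CPM in ICM, 31.2 and 30.9 CPM in WT, 40.7 CPM in young I79 and 19.9 CPM in old I79, so that ICM and WT did not separate while old I79 was lower.

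ATM and CHEK2 again stood apart. ATM measured 30.5 and 30.9 CPM in ICM, 67.0 and 76.8 CPM in WT, 73.0 CPM in young I79 and 92.9 CPM in old I79. ICM was thus lower than both comparators (-1.25 against young I79 and -1.22 against WT), while the log2 ratio of WT to young I79 was -0.02. RBBP8 was also lower in ICM than in the other groups, at 10.7 and 14.2 CPM in ICM, 25.6 and 26.5 CPM in WT, 27.7 CPM in young I79 and 23.1 CPM in old I79 (-1.16 and -1.07). CHEK2 measured 5.93 and 7.07 CPM in ICM, 14.2 and 12.9 CPM in WT and 5.08 CPM in young I79, a log2 ratio of WT to young I79 of 1.399. FANCD2 likewise differed between WT and young I79, at 0.738 and 0.768 CPM in ICM, 8.02 and 6.76 CPM in WT and 4.55 CPM in young I79. The cause of these gaps was not tested. For CHEK2 the ICM libraries therefore lay above young I79 (0.35) and below WT (-1.05), and no direction can be given.

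**Figure D5:**
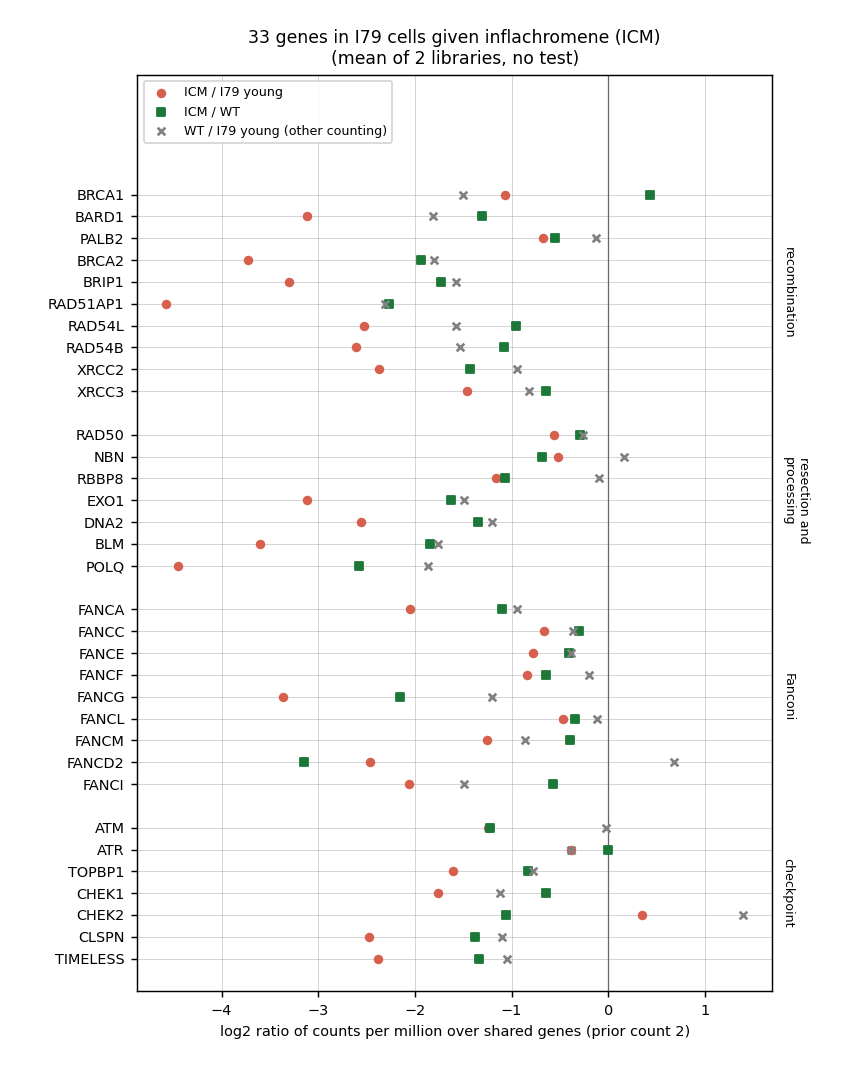
Each row is a gene, with its log2 ratio of ICM to young I79 (red circles), ICM to WT (green squares) and WT to young I79 (grey crosses) on the horizontal axis. Most red circles lie left of the grey crosses, ATM and RBBP8 have circles and squares near -1.2 with the cross near 0, and BRCA1 has its square at 0.43.

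Against both comparators at once, 22 of the 33 genes lay lower by over 0.6 in ICM and 0 lay higher, beside 19.6% and 20.6% of all genes compared. Neither comparator was counted as ICM was, so a technical part of these ratios cannot be told apart. NBN (54.3 and 44.4 CPM in ICM, 70.6 CPM in young I79), RAD50 (46.5 and 49.6 CPM, 70.6 CPM) and FANCL (10.5 and 9.41 CPM, 13.7 CPM) had ratios between -0.56 and -0.46 against young I79, the values nearest to 0 among the 32 negative ones besides ATR.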

How the data were processed

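Poly(A)+ RNA was measured in IMR90 cells. The young and old tables deposited by the authors gave estimated counts and TPM per transcript, 1 table for a group whose labels list 2 replicates, and were taken as pooled values. Tables of WT and HMGB2 KD deposited by the authors held counts per gene, and those of ICM held counts of reads per gene region, some of them fractional, from mRNA libraries matched to ribosome profiling. The submitters' processing notes name STAR 2.6.0c, featureCounts, deepTools, DESeq2 and the build GRCh37, without saying which tool made which table, and the quantifier of the transcript tables is not given in the sources used here. Whether counting used strand is not stated; 26 of the 33 genes overlap another annotated gene, 16 a protein-coding one.

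Transcript estimates were summed per gene (97.67% of transcript identifiers matched) and rounded to whole numbers. The 4 columns of effective transcript length were not used. Summary rows that name no gene, 16.92% to 18.02% of the WT and HMGB2 KD totals, were left out. Genes were filtered with filterByExpr, scaled by TMM and tested with the quasi-likelihood test of edgeR 4.0.16 (R 4.3.3), two-sided, with Benjamini-Hochberg adjustment over all genes tested; a call needed an adjusted p under 0.01 and a log2 fold change past 0.6. WT and HMGB2 KD were compared with 2 libraries each. Old was compared with young with the isolate as covariate, which left 1 residual degree of freedom. Standard errors were the fold change divided by the square root of F. Log2 ratios within an isolate and ratios with ICM used a prior count of 2 and carry no test. Old to young ratios not on the log2 scale, and their counting intervals, used counts scaled to library size with no prior count. The ICM ratios used the 24638 shared genes, which held 93.81% to 96.87% of the reads, with at least 10 counts in a group compared. Other tools were limma 3.58.1, DESeq2 1.42.0, Python 3.11.15, pandas 2.3.3, numpy 2.4.6, scipy 1.17.1 and matplotlib 3.10.9.

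On simulated data with genes changed by 1.5 (log2), the tests recovered 75.5% of the changed genes with 8 false calls among 15338 genes for the knockdown, and 76% with 21 false calls among 15116 genes for old against young. Only a small part of the genes was changed there, so the false calls weigh more among the calls than among all genes. The simulated isolates also had no difference of their own, so the error rate of the real calls was not measured. Replicate libraries differed by more than sampling noise (chi-square per degree of freedom 24.7 in WT, 37.6 in HMGB2 KD and 2.22 in ICM). Counts between libraries limit precision as given by the intervals, which cover counting error only.

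The genes, lists, naming rule and tests were chosen with earlier results of these data known. All 33 genes were named by role; other genes were named only for HMGB2 and HMGB1 or where a list held 5 or fewer calls. Alternatives were other scalings, DESeq2, no filter, other thresholds, a replicate block, no isolate covariate, counts rebuilt from TPM, and each library left out. Some genes of the other repair and checkpoint lists are not reported here.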

Additional observations from a re-analysis of the deposited data

Results flagged for a closer look

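For 2 of the 33 genes the isolates moved in opposite directions between young and old, and in neither was the difference between isolates tested, since each isolate has 1 young and 1 old table. CHEK2 had a log2 change of -0.67 in I79 and 1.14 in I10, a difference (I79 minus I10) of -1.81. Its counting intervals lay below 1 in I79 and above 1 in I10. FANCC had a log2 change of -0.16 in I79 and 0.03 in I10, a difference of -0.19, and both of its counting intervals include 1 (0.744 to 1.08 in I79 and 0.853 to 1.22 in I10).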

How the results depend on the processing

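In old against young, 10 of the 16 genes called lower were called under every alternative. The number called was 17 with RLE scaling, upper quartile scaling and DESeq2, 16 without the isolate covariate, 11 with counts rebuilt from TPM (where RAD54L, EXO1, DNA2, BLM, FANCI and ATR lost the call and FANCG gained it), 23 at an adjusted p under 0.05 and 25 without the filter on low counts. Over all genes, the calls were 2042 lower and 2209 higher without the filter and 1823 lower and 2037 higher at an adjusted p under 0.05, from 578 and 869. In the knockdown, CHEK2 was called in every alternative with all 4 libraries and was lost on leaving out any 1 library (0 to 0 of the 33 genes). Over all genes, leaving out 1 library gave 138 to 455 lower and 174 to 544 higher calls, the lowest counts without HMGB2 KD replicate 2, from 359 and 438, and an adjusted p under 0.05 gave 659 higher. A replicate block over the shared numbers gave 558 lower and 685 higher, with CHEK2 at an adjusted p of 0.000115; the deviations of same-numbered samples correlated at 0.12 over 2 pairs, and nothing in the labels says that a number marks a shared culture. The sign of 12 genes without a call changed when a library was left out, with values between -0.18 and 0.29. FANCD2 changed sign with counts from TPM (1.61), CHEK2 in I79 alone (-0.67) and FANCC in I10 alone (0.03). The median ratio of ICM to young I79, -2.05, was -2.09 with coding and noncoding regions only, -2.03 to -1.98 with 1 ICM library left out, and -1.07 with WT as the comparator. The causes of these changes were not tested. Low counts limit several genes: in old I79, FANCD2 had 17 counts, EXO1 23, RAD54B 25, RAD54L 30, CLSPN and XRCC2 32 each, BLM 34 and CHEK2 51, and in the ICM libraries BRCA2, RAD51AP1, POLQ, BLM and FANCD2 had under 10 reads in at least 1 library.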
